A study of Mus musculus with 10 samples.

Results

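The subject is 34 nuclear genes that encode subunits of the mitochondrial respiratory chain, measured in mouse lung after neonatal cigarette smoke. The set held 19 subunits of complex I, 4 of complex II, 5 of complex III, 5 of complex IV and the carrier protein cytochrome c. A gene was represented by the probe set that the platform annotation assigns to its symbol alone and that had the highest mean over the 10 arrays. In this way 34 of 34 members were found, and 34 of 34 passed the filter on dim probe sets, out of 13382 genes tested.

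Lungs came from C57BL/6J mice aged 2 weeks, 1 mouse per Affymetrix Mouse 430 2.0 array. The 4 control mice lived in filtered air, apart from the exposed animals. The 6 smoke mice entered a smoke chamber together with their mother at an age of 1 day, for 1 hour daily over 7 days and then 2 hours daily over another 7 days, at a mean particulate load of 90 mg per cubic metre. Sex is given as unknown and no litter or array batch is named, so a p-value here measures the spread between these arrays, which may be technical, and the number of arrays limits the precision. The exposed pups also shared the chamber with their dam, and no group isolates the smoke from that handling.

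The respiratory chain passes electrons from NADH (through complex I) and from succinate (through complex II) to ubiquinone, then through complex III and cytochrome c to complex IV, where oxygen is reduced to water. Complexes I, III and IV pump protons, and the gradient drives ATP synthesis. Alveolar type 2 cells, ciliated cells and muscle are rich in mitochondria. A whole lung mixes these with many other cells, so fewer cells of a type and less RNA per cell cannot be told apart. The lung markers were present on every array. The mean log2 level of the alveolar type 2 list (6 genes, surfactant proteins included) was 12.07 to 12.83 in control lungs and 11.27 to 13.05 in smoke lungs, and that of the club cell list (4 genes) was 13.70 to 14.21 and 13.84 to 14.34.

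Subunit genes of the chain share regulators, among them NRF1, which binds a GC-rich palindrome, and the ETS factor GABP. To show what such sites look like in these genes, RefSeq promoters (GRCm38.p6, 250 bases before to 50 after the start) were searched on both strands for the NRF1 core, a palindrome-like pair of GCGC blocks with the letter A and any base between them, read on either strand. Of the 34 members, 25 had a promoter in the table, and 5 of the 25 (20%) held the core, against 10.4% of the array-tested genes with a promoter and 5.19% of all genes with one. The members were Ndufa5, Ndufa8, Sdha, Sdhd and Uqcrc1, and in Uqcrc1 both matches lay after the start. The ETS core CGGAAG, searched on both strands, stood in 10 of 25 (40%), against 31.7% of tested genes. A match is a run of letters, not a measured binding site. The stretches below run 5′ to 3′ on the strand of the gene, and the capitals mark the NRF1 core.
Sdha, chr13:74350276-74350305, minus strand: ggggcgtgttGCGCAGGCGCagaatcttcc
Sdhd, chr9:50603909-50603938, minus strand: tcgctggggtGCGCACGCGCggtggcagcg
Ndufa8, chr2:36049349-36049378, minus strand: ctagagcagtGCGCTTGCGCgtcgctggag
Ndufa5, chr6:24527697-24527726, minus strand: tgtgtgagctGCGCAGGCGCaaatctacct
On the arrays these 5 members had log2 changes (smoke minus control) of 0.07 for Sdha, -0.15 for Sdhd, 0.00 for Ndufa8, 0.06 for Ndufa5 and -0.14 for Uqcrc1. None passed the threshold.

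No subunit of the respiratory chain passed the test between smoke and control lungs. Of the 34 members 0 were higher and 0 lower (limma, adjusted p under 0.05 over all tested probe sets, smallest adjusted p = 0.353), where 0.725% of all genes tested were called, 0.0224% higher and 0.702% lower. Before adjustment, 1 member (2.94%), Ndufb8, had a p under 0.05, against 10.2% of all genes. The median log2 change of the members was -0.01, with 17 above 0 and 17 below, and that of all genes tested was 0.06. It was 0.00 in complex I, -0.01 in complex II, -0.12 in complex III and 0.10 in complex IV. The smoke and control arrays overlapped in every one of the 34 members, so 0 were separate, against 4.09% of genes.

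The size of change that these data allow depended on the scaling of the arrays. The shares over all genes given here were not matched to the members for signal level. Whether narrow intervals are particular to the members was not tested. After quantile normalization, in 17 of 34 the 95% interval of the change lay inside 1.5-fold either way, against 19.2% of all genes tested, and in 29 of 34 it lay inside 2-fold, against 66.1%. On the values as deposited 9 of 34 were inside 1.5-fold (16.8% of genes) and 28 inside 2-fold, and with each array centred on its median 5 (9.5% of genes) and 23. Inside 1.5-fold were 5 of 5 complex IV members after quantile normalization but 2 of 5 under either other scaling, and all 5 were inside 2-fold under all 3. The widest intervals were those of Ndufa10 (-1.60 to 0.10), Sdhc (-0.56 to 1.23) and Ndufs4 (-1.49 to 0.27). A change of 2-fold was within these intervals and within those of Ndufs7 (-0.05 to 1.36) and Uqcrq (-1.02 to 0.50).

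**Figure D1:**
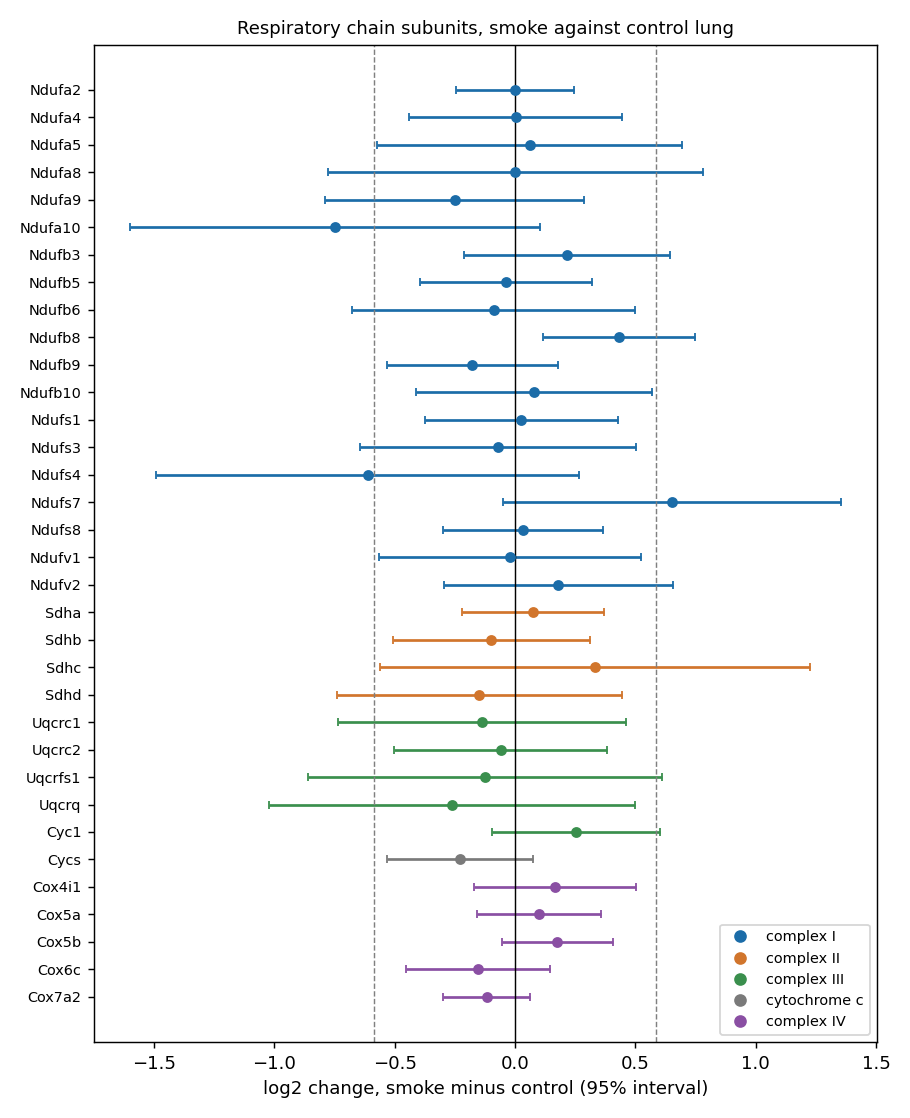
Log2 change (x axis, smoke minus control) of each of the 34 members (y axis, coloured by complex), with bars for the 95% interval from limma over 4 control and 6 smoke arrays; dashed lines stand at 1.5-fold. After the quantile normalization plotted here the 5 complex IV members lie between the dashed lines with their whole interval (2 of 5 as deposited), and Ndufb8 is the member whose interval, 0.11 to 0.75, leaves out 0.

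Complex I, the entry point for NADH, is the largest complex and holds a core that carries the flavin and iron-sulphur clusters and a shell of accessory subunits. Ndufb8, an accessory subunit of the membrane arm, was at log2 levels of 12.06, 12.05, 12.07 and 12.38 in the 4 control lungs and ran from 12.28 to 12.88 in smoke lungs, with a median of 12.51. In 5 of 6 smoke arrays it lay above every control. The log2 change was 0.43 ± 0.14 (SE), or 1.35-fold, and did not pass (limma, adjusted p = 0.353). Its lone overlap with the controls came from control array 4 and smoke array 6.

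Ndufs7, a core subunit that binds the iron-sulphur cluster next to ubiquinone, was at 11.20, 11.20, 10.73 and 10.97 in controls and ran from 11.02 to 12.71 after smoke, with a median of 11.47. Smoke arrays 1 and 2 (12.71 and 12.34) stood high and smoke arrays 5 and 6 (11.05 and 11.02) lay among the controls. It had the largest positive change of the members, 0.65 ± 0.32 (limma, adjusted p = 0.522). A second tested probe set of Ndufs7 was at -0.02 ± 0.38.

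Ndufa10, an accessory subunit of the membrane arm, was at 10.75, 10.27, 10.44 and 10.88 in controls and ran from 8.79 to 10.75 after smoke, with a median of 9.82. Smoke arrays 1 to 4 (8.79, 9.10, 10.24 and 9.41) lay below every control, and smoke arrays 5 and 6 (10.75 and 10.71) did not. It had the largest negative change, -0.75 ± 0.39 (limma, adjusted p = 0.541). Ndufs4, an accessory subunit whose loss in mice gives a known model of Leigh syndrome, was at 10.35, 10.58, 10.84 and 10.57 in controls and ran from 8.64 to 11.14 after smoke, with a median of 9.88. Again smoke arrays 1 to 4 were below every control, and its change was -0.61 ± 0.40 (limma, adjusted p = 0.627), or -0.34 without smoke array 1. The other tested probe sets of Ndufs4 were at 0.28, 0.47 and -0.22. Ndufs8, a core iron-sulphur subunit, had 6 tested probe sets with changes from -0.86 to 0.15. The lowest, -0.86 ± 0.26, had the smallest p of any member probe set and did not pass (limma, adjusted p = 0.283). The brightest was at 12.59, 12.76, 12.83 and 12.86 in controls and ran from 12.48 to 13.12 after smoke (median 12.71), a change of 0.03 ± 0.15 (limma, adjusted p = 0.959).

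The other 14 complex I members had changes from -0.25 (Ndufa9) to 0.22 (Ndufb3). Ndufv1 and Ndufv2, the flavin subunit and its partner at the tip where NADH is oxidised, were at -0.02 and 0.18. Ndufs1 and Ndufs3, further core subunits of the same arm, were at 0.03 and -0.07. Ndufa2 was the steadiest member in smoke lungs, with an SD of 0.06 (n = 6) against 0.16 (n = 4) in controls and a change of 0.00 ± 0.11. Ndufa4, first described with complex I and now placed in complex IV, was also at 0.00, with an SE of 0.20. It is counted here with complex I, so the complex IV values leave it out. Its SD in smoke lungs was 0.41 and its interval -0.44 to 0.45.

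Complex II is the succinate dehydrogenase of the tricarboxylic acid cycle. Sdha, its flavoprotein, was at 11.52, 11.65, 11.60 and 11.58 in controls and ran from 11.43 to 11.93 after smoke, with a median of 11.70. Smoke arrays 1 to 4 lay above every control and smoke arrays 5 and 6 below, and the change was 0.07 ± 0.14 (limma, adjusted p = 0.873). A dim probe set of the gene was at -0.84 ± 0.31 (limma, adjusted p = 0.396). Sdhc, a membrane anchor, was at 8.41, 8.70, 7.84 and 8.77 in controls and ran from 7.40 (smoke array 1) to 9.57 (smoke array 2), with a median of 9.00 and a change of 0.33 ± 0.41 (limma, adjusted p = 0.804). Without 1 array it ran from 0.14 (control array 3) to 0.60 (smoke array 1). Sdhb, the iron-sulphur subunit, and Sdhd, the other anchor, were at -0.10 and -0.15.

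Complex III moves electrons from ubiquinol to cytochrome c. Cyc1, its cytochrome c1 subunit, was at 12.05, 12.03, 11.84 and 12.11 in controls and ran from 12.05 to 12.64 after smoke, with a median of 12.10. Only smoke arrays 1 and 2 stood clearly above, and the change was 0.25 ± 0.16 (limma, adjusted p = 0.609). Without both of them it was 0.07. Uqcrq, a small subunit, was at 11.74, 11.50, 12.25 and 12.33 in controls and ran from 10.47 to 12.38 after smoke, with a median of 11.76 and a change of -0.26 ± 0.35 (limma, adjusted p = 0.821). The direction was not settled, at 0.12 without smoke arrays 1 and 2, and 3 dimmer probe sets were at 0.18, 0.55 and 1.57. The core proteins Uqcrc1 and Uqcrc2 were at -0.14 and -0.06. Uqcrfs1, the Rieske iron-sulphur protein, was almost level in controls (10.94 to 11.01) and ran from 9.56 to 11.65 after smoke, around a change of -0.12 ± 0.34.

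Cycs, the mobile carrier cytochrome c, which also starts apoptosis when released, was at 13.59, 13.70, 13.44 and 13.44 in controls and ran from 12.94 to 13.59 after smoke, with a median of 13.28. Smoke arrays 3 to 6 lay below every control, smoke arrays 1 and 2 did not, and the change was -0.23 ± 0.14 (limma, adjusted p = 0.592). Without smoke arrays 1 and 2 it was -0.36 ± 0.12, and it did not pass there either (limma, adjusted p = 0.262).

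Complex IV, cytochrome c oxidase, reduces oxygen at the end of the chain. Its members had a median SD of 0.19 in smoke lungs and 0.13 in controls, but 0.37 and 0.16 on the values as deposited. Cox7a2, a small nuclear subunit, was at 14.25, 14.25, 14.32 and 14.24 in controls and ran from 13.99 to 14.25 after smoke, with a median of 14.16. In 5 of 6 smoke arrays it lay below every control, by a change of -0.12 ± 0.08 (limma, adjusted p = 0.645), and the sign turned to 0.07 when the values were used as deposited. Cox5b was at 13.16, 13.11, 13.22 and 13.42 in controls and ran from 13.24 to 13.56 after smoke, with a median of 13.43. In smoke arrays 1, 2, 5 and 6 it exceeded the highest control, with a change of 0.18 ± 0.11 (limma, adjusted p = 0.590). The other tested probe sets of Cox5b were at 0.20, 0.07, 0.38 and -0.55 ± 0.34. Cox4i1, Cox5a and Cox6c were at 0.17, 0.10 and -0.15.

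Although the group means were close, the smoke lungs differed much more among themselves than the controls did. The SD was larger in smoke than in control lungs for 32 of 34 members, with medians of 0.37 and 0.16 on the log2 scale. The same held for 81.4% of all genes tested, with medians of 0.45 and 0.25. The median deviation from the control mean over the 34 members ran from -0.16 to 0.18 over the arrays, from -0.24 to 0.44 on the values as deposited and from -0.59 to 0.49 with median centring. Within an array, however, members went in opposite directions. On smoke array 1, 12 members lay at least 0.5 below their control mean and 6 at least 0.5 above, with extremes of -1.95 (Ndufs4) and 1.69 (Ndufs7). Smoke array 3, by contrast, had 1 member below and 0 above by that much.

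**Figure D2:**
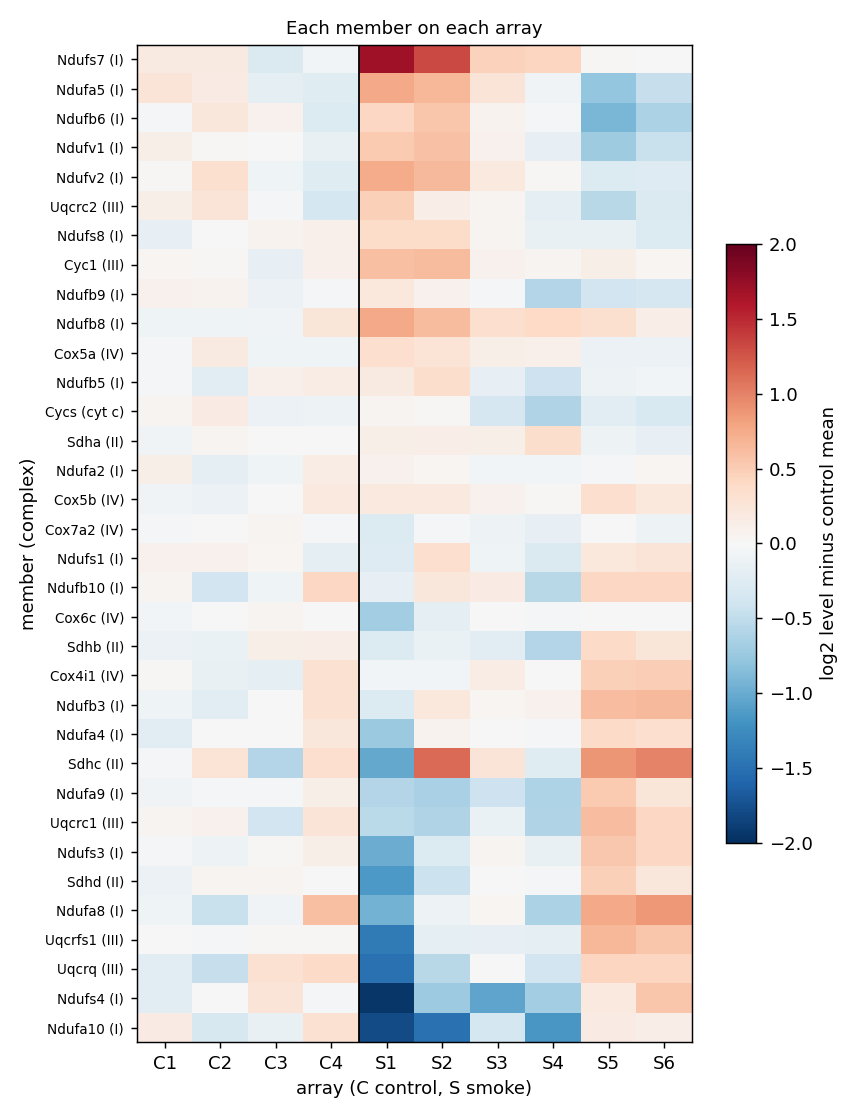
Log2 level minus the control mean (colour, from -2 to 2) of each member (rows, complex in brackets) on each array (columns, C control and S smoke). Rows are ordered by the difference between smoke arrays 1 and 2 and smoke arrays 5 and 6, so the order is not itself a result; members at least 0.5 from their control mean number 0 or 1 on each control array, 18 on S1, 13 on S2, 11 on S5, 9 on S4 (all below), 6 on S6 and 1 on S3.

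The smoke arrays also differed in 3' to 5' ratios of control transcripts. The RNA had been amplified from an oligo(dT) primer, so such a ratio cannot tell RNA integrity from amplification here. The ratio of the 3' to the 5' actin control probe set was 31.6 and 29.4 on smoke arrays 1 and 2, 2.18 and 2.98 on smoke arrays 5 and 6, 9.26 and 10.3 on smoke arrays 3 and 4, and 3.96 to 10.4 in controls. The Gapdh ratio did not follow it on smoke array 1, at 4.76 against 4.82 to 5.89 in controls, and was 9.16 on smoke array 2 and 1.4 and 2.13 on smoke arrays 5 and 6. Smoke arrays 5 and 6 were also the only smoke arrays with a high level of Xist, at 14.09 and 14.01, near the 13.96 and 13.98 of control arrays 2 and 4. The complex II median was -0.64 on smoke array 1, and 0.42 and 0.23 on smoke arrays 5 and 6. The complex III median was -0.54 on smoke array 1 and -0.20 on smoke array 2, against 0.43 and 0.41 on smoke arrays 5 and 6. The complex II and III medians were lowest on smoke array 1 under all 3 scalings. The complex IV median lay between -0.06 and 0.08 on all 10 arrays after quantile normalization. On the values as deposited it was 0.51 and 0.72 on smoke arrays 1 and 2 and -0.35 and -0.34 on smoke arrays 5 and 6, opposite to complex III. The median deviation of the alveolar type 2 markers, over 6 genes, was -1.09 on smoke array 1, 0.00 on smoke array 2, and 0.52 and 0.45 on smoke arrays 5 and 6. That of the endothelial markers, also 6 genes, was -0.97, -1.16, 0.27 and 0.42 on the same arrays. The macrophage markers (7 genes) were at -1.16, -0.54, 0.01 and -0.07, and the alveolar type 1 markers (6 genes) at -0.33, -0.31, 0.27 and 0.24. The macrophage median was also low on smoke arrays 3 and 4, at -0.98 and -0.48. Not every list followed this order. On smoke arrays 1, 2, 5 and 6 the erythroid markers were at 0.35, 0.31, 0.03 and -0.11. Brown fat markers were at -0.13, -0.41, -0.42 and -0.76 there. Club cell markers were at -0.11, 0.20, 0.27 and 0.13, and ciliated cell markers at -0.84, 0.20, -0.06 and 0.15. The part of RNA integrity, of amplification, of sex or of cell mix in the spread of the members was not tested.

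**Figure D3:**
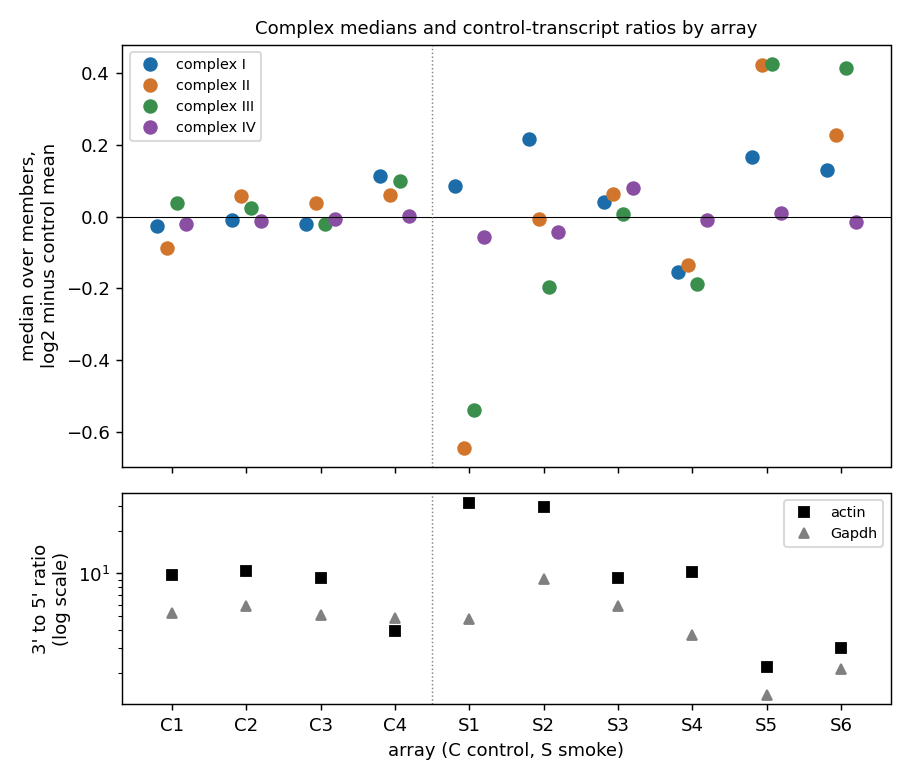
Upper panel: median over the members of each complex of the log2 level minus the control mean, by array (C control, S smoke). Lower panel: the 3' to 5' ratio of the actin and Gapdh control probe sets on a log axis; complexes II and III are lowest on S1, where the actin ratio is 31.6, and highest on S5 and S6, where it is 2.18 and 2.98.

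The direction of this contrast depended on which probe set of a gene was read. On Affymetrix arrays of this kind an identifier ending in _at marks a probe set designed to be unique to a transcript, and _a_at, _s_at or _x_at mark one that can hybridise to several transcripts. Of the 12 members read by an _at probe set, 11 were lower on both of smoke arrays 1 and 2 than on both of smoke arrays 5 and 6, with a median difference of -1.06. Of all genes tested by that kind 31.5% were lower and 38.1% higher in that sense, and of all 34 tested _at probe sets of the members 24 were lower and 9 higher. Of the 22 members read by the other kinds, 13 (59.1%) were higher and 5 (22.7%) lower in that sense, with a median of 0.32, against 52.1% and 28% of all genes read by those kinds. Over all genes tested the medians were 0.07 and 0.31. The probe set classes were set side by side after their values were seen, so these are descriptions and no test was made.

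The split was seen within single genes. In 18 members both kinds of probe set were tested, and in 15 of the 18 the brightest of the _a_at, _s_at or _x_at kind was higher than the brightest _at probe set in the difference between smoke arrays 1 and 2 and smoke arrays 5 and 6. For Ndufs7 this difference was 1.49 with one kind and -1.65 with the other. For Ndufs4 it was 1.21 and -1.70, for Ndufv2 0.97 and -1.95, and for Ndufb5 0.35 and -2.10. Uqcrq went the other way, at -1.45 and 1.49, as did Cycs (0.30 and 0.90) and Cox5b (-0.07 and 0.54). In 15 of the 18 members, not all the same 15, the probe sets of the pair differed in sign on the same lungs. Such pairs were not counted over all genes, so whether the split is particular to the members was not tested.

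**Figure D4:**
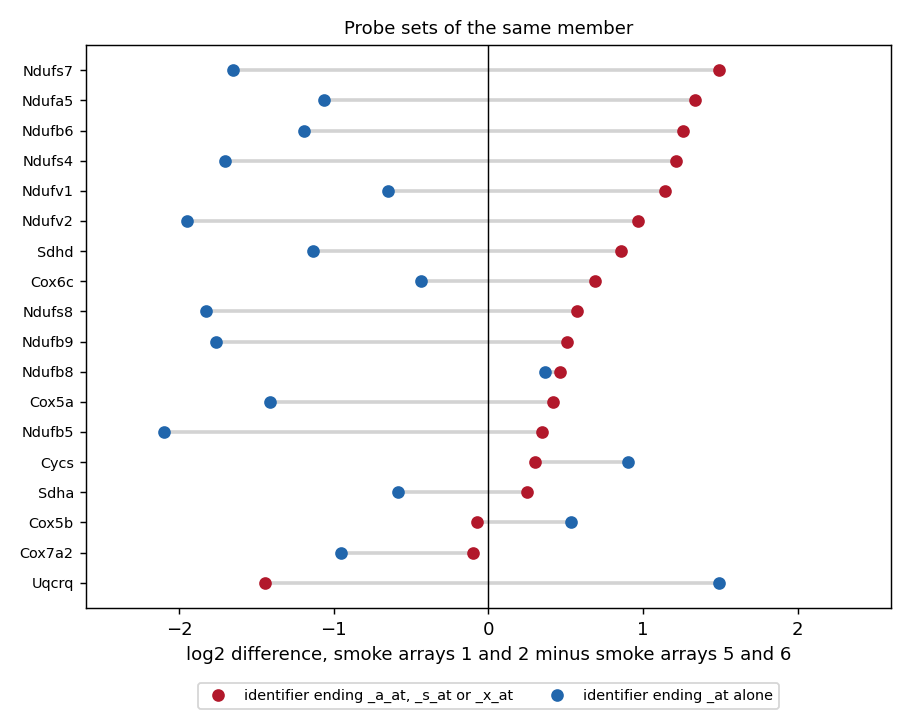
Difference in log2 level between smoke arrays 1 and 2 and smoke arrays 5 and 6 (x axis) for the 18 members with both kinds of tested probe set (y axis); red points are identifiers ending in _a_at, _s_at or _x_at, blue points those ending in _at alone, and the grey bar joins the same gene. Red lies to the right of blue in 15 of 18 members. The share over all genes was not computed.

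With these arrays left out, the members still gave few calls. Without smoke arrays 1 and 2, 0 of 34 members passed (0.934% of genes did), and Ndufa10, Ndufs4 and Ndufs7 came to -0.31, -0.25 and 0.23. With the actin ratio entered into the fit on the log2 scale 0 passed (2.77% of genes), and with smoke arrays 5 and 6 left out 0 passed (5.54% of genes). In that last fit the smallest adjusted p among members was 0.0504, for Ndufa9, and Ndufa10, Ndufs4 and Ndufs7 were at -1.20, -1.10 and 0.97 (limma, adjusted p = 0.0518, 0.0541 and 0.0769). With the replicate number added there as a block 2 members passed (5.89% of genes), Ndufs4 and Ndufs7, with limma adjusted p of 0.0408 and 0.0297, although the numbers were not found to pair the lungs. With smoke arrays 3 and 4 alone against the controls, a setting chosen after the data were seen, 1 of 34 passed (4% of genes), Ndufs4 at -0.87 ± 0.20 (limma, adjusted p = 0.0427).

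Further genes of the same machinery gave no call either, where 0.725% of all genes tested were called. Among other complex I subunits 0 of 15 tested passed, with a median of 0.05, and the smallest p belonged to Ndufv3 at 0.58 ± 0.20 (limma, adjusted p = 0.370). Among other complex III subunits 0 of 4 passed, with a median of 0.00. ATP synthase subunits had 0 of 16, with a median of -0.10. Among them Atp5a1, a catalytic-head subunit, was at 0.35 ± 0.10 (limma, adjusted p = 0.230). It was above every control in 6 of 6 smoke arrays, where 4.09% of all genes tested had no overlap between the groups in either direction. Assembly factors had 0 of 36, with a median of 0.01, where Ttc19, a complex III factor, was at 0.76 ± 0.29. The tricarboxylic acid cycle and pyruvate dehydrogenase list had 0 of 16, with a median of -0.05 and 6 of 16 above 0. In it Suclg2, a succinyl-CoA ligase subunit, was at 0.54 ± 0.17 and citrate synthase (Cs) at 0.69 ± 0.30. Import proteins and porins had 0 of 17, with a median of 0.13, and glycolysis 0 of 13, with a median of 0.04.

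Regulators of mitochondrial gene expression had 0 of 14 past the threshold (0.725% of all genes tested), with a median of 0.09. Nrf1, the factor whose core motif is shown above, was at 0.42 ± 0.27, and the ETS factor Gabpa at -0.19 ± 0.18. The coactivator Ppargc1a was at -0.19 ± 0.32, the nuclear receptor Esrra at 0.23 ± 0.17, and Tfam, which packages and transcribes mitochondrial DNA, at -0.06 ± 0.19. The smallest p-values were those of Pprc1 at 0.60 ± 0.22 and Tfb2m at -0.77 ± 0.30 (limma, adjusted p = 0.392 and 0.428). The only mitochondrially encoded subunit matched was ND5, at 0.39 ± 0.27.

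Complex IV has subunits that come as a widespread and a muscle isoform. Among other complex IV subunits 0 of 12 tested passed (0.725% of all genes tested), with a median of 0.12. The widespread Cox6a1 and Cox8a were at 0.32 ± 0.17 and 0.20 ± 0.35. The muscle and brown fat isoforms Cox6a2, Cox7a1 and Cox8b were at 0.32 ± 0.44, -0.34 ± 0.47 and -1.07 ± 0.91. These errors were wide, and single lungs stood out. Smoke array 5 had the highest level of all 3, at 10.90, 9.46 and 10.93. Control array 2 was second for Cox7a1 and Cox8b, at 8.99 and 9.96.

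Those same lungs carried signal of other tissues. The mean log2 level of the 9 skeletal muscle markers ran from 4.66 to 9.62 in controls and from 4.59 to 11.47 after smoke, with Acta1 at 11.25 on control array 1, 13.42 on smoke array 5, 6.63 on smoke array 6 and at the floor of 3.98 on the other 7 arrays. The mean of the 11 cardiac muscle markers ran from 8.33 to 9.15 in controls and from 7.56 to 9.70 after smoke. Of these 0 of 11 passed (0.725% of all genes tested). The mean of the 7 brown fat markers ran from 7.01 to 8.80 in controls and from 6.83 to 7.56 after smoke, with Ucp1 at 9.39 on control array 2 and from 3.98 to 5.85 on the other arrays. Lists of brown fat and complex IV share Cox7a1 and Cox8b. For the 34 members the median deviation was 0.18 on smoke array 5, 0.14 on smoke array 6 and -0.02 on control array 1. Smoke arrays 5 and 6 also shared a low actin ratio and a high Xist level. They did not share the skeletal muscle signal to the same degree. The median deviation of the skeletal muscle markers was 4.92 on smoke array 5 and -0.05 on smoke array 6. It was 3.87 on control array 1, where the actin ratio was 9.7 and Xist was at 8.25. The part of these tissues in the isoform values or in the 34 members was not tested.

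**Figure D5:**
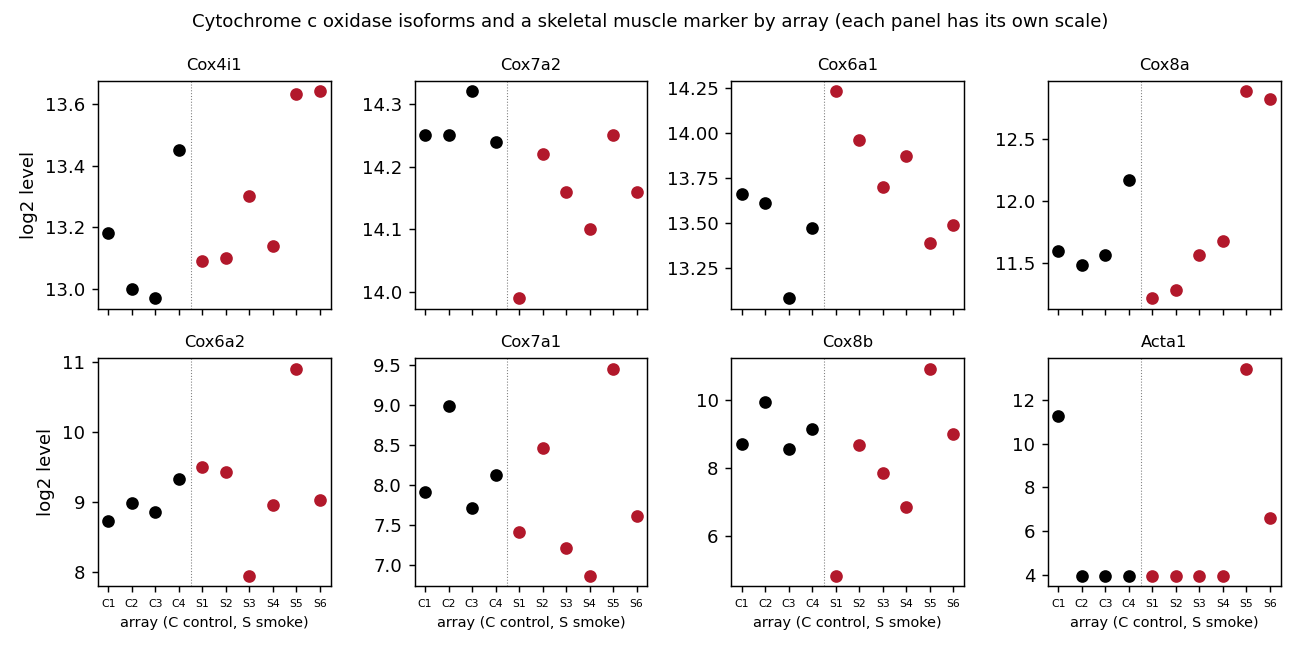
Log2 level by array (C control in black, S smoke in red) of widespread complex IV subunits (Cox4i1, Cox7a2, Cox6a1, Cox8a), muscle isoforms (Cox6a2, Cox7a1, Cox8b) and the skeletal muscle marker Acta1, each panel on its own scale. The 3 muscle isoforms peak on S5, where Acta1 is at 13.42, while Cox7a2 stays between 13.99 and 14.32.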

How the data were processed

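Per the labels' protocols, Trizol RNA went through repeated cDNA synthesis and cRNA amplification from an oligo(dT) primer (a small-sample protocol). The deposited table holds the authors' linear intensity for each probe set. Which program summarised the probes is not given in the sources used here. Once 2% was trimmed from both ends, each array averaged 500, so the arrays had been scaled alike before deposit. Here 1 zero was replaced by the smallest positive value, and the values were converted to log2, quantile normalized and floored at the 10th percentile, 3.98. After removal of 64 control probe sets from 45101, the 60% with the highest means (27022) entered limma 3.58.1 (R 4.3.3, eBayes with trend, two-sided, smoke minus control, Benjamini-Hochberg adjustment, threshold 0.05). The fit was also run on simulated arrays with independent noise of equal spread in both groups. The smoke lungs here spread more than the controls, a condition which that run did not cover. The platform annotation gave 1 symbol for 34945 probe sets, several for 932 and none for 9160. Levels of different probe sets are not comparable. The 4 control values and the lowest, median and highest smoke value are printed for the members with the smallest p in each complex (3 in complex I, 2 in each other), for Cycs, for the largest change each way, and for members whose tested probe sets differ in sign with at least 1 change of 0.5 or more; other lists are shown by up to 3 genes with the smallest p. The members and lists were chosen with earlier results of these data known. The lowest correlation between any pair of arrays was 0.747, and 0 pairs were identical. Replicate numbers were not a pairing (correlations of deviations from -0.07 to 0.17). Figures were drawn with matplotlib 3.10.9.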

Additional observations from a re-analysis of the deposited data

Results flagged for a closer look

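Among 78 groups of arrays examined (each member and each median, in 4 controls or 6 smoke lungs), 6 held an array that stood apart from the others of its group, where chance alone flags about 1 in 20. Ndufa4 was at 11.91 on smoke array 1, against 12.65 to 13.04 on the other smoke arrays. Cox6c was at 13.36 on smoke array 1, against 13.86 to 14.05. Ndufb8 was at 12.38 on control array 4, against 12.05 to 12.07 on the other controls. The median deviation over all members was 0.10 on control array 4, against -0.02 to -0.01, and that of complex I was 0.11 there, against -0.03 to -0.01. Control array 4 also had an actin ratio of 3.96, against 9.28 to 10.4 on the other controls. Xist was at 13.98 on control array 4 and 13.96 on control array 2. Whether these values go together was not tested. The complex II median was -0.09 on control array 1, against 0.04 to 0.06.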

How the results depend on the processing

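The count of members past the threshold was 0 in each direction under every alternative run, other normalization, filter, floor, variance model, covariate and the call rule of the series' design included, with 2 exceptions. With arrays numbered 1 to 4 in both groups and the replicate number as a block, 1 member was higher (Ndufs7, 0.97, limma, adjusted p = 0.0297) and 1 lower (Ndufs4, -1.10, limma, adjusted p = 0.0408), where 5.89% of genes were called; the numbers were not found to pair the samples, and no number was its own best match. With smoke arrays 1, 2, 5 and 6 left out, 1 was lower (Ndufs4, -0.87), where 4% of genes were called. Leaving out 1 array at a time gave 0 and 0, with the median over all members from -0.04 to 0.02.

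Probe sets ending in _at alone gave a value for 27 of 34 members, not for Sdhc, and so medians over fewer genes: -0.23 for complex I (16 of 19) and 0.18 for complex III (3 of 5). The complex III median moved to -0.47 on arrays 1 to 4, with and without the block. It turned positive under array weighting (0.12) and when smoke arrays 1 and 2 were dropped (0.08), and ran from -0.28 (without smoke array 5) to -0.02 (without smoke array 1) when 1 array was left out. That of complex IV moved to 0.20 as deposited, 0.0108 with array weights, -0.002 without smoke arrays 1 and 2, 0.0085 on arrays 1 to 4 with and without the block, 0.0536 with the mean over probe sets and 0.0482 without smoke arrays 1, 2, 5 and 6, and ranged from 0.0546 (without smoke array 1) to 0.117 when 1 array was left out.

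The sign turned in these cases. Values as deposited gave Cox7a2 0.0716. Median centring gave Sdha -0.0548. Probe sets ending in _at alone gave Cycs 0.0497, Ndufs7 -0.0243, Ndufs8 -0.53 and Uqcrq 0.18. The mean over probe sets gave Ndufs8 -0.24, Sdha -0.25 and Uqcrq 0.51. Array weights gave Ndufs8 -0.11, Sdha -0.0009 and Uqcrq 0.0878. Without smoke arrays 1 and 2, Ndufs8 was -0.13 and Uqcrq 0.12, and without smoke arrays 1, 2, 5 and 6 Ndufs8 was -0.0484. With 1 array left out Sdha ran from 0.02 to 0.12, Uqcrq from -0.42 to -0.02, and Ndufs8 from -0.0342 to 0.0937, below 0 without control array 1, smoke array 1 or smoke array 2. The cause was not tested. The interval counts under the other scalings were added after the data were seen. Dim probe sets, and 10 arrays, limit the precision.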
